A study of Mus musculus with 6 samples.

Results

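Transcripts of the p53 axis and of the CDK inhibitors were examined in the 4T1 parental line (P) and its axitinib-resistant derivative (AxR). The 10 genes were taken by name from the deposited table of 53465 genes: Trp53, its negative regulators Mdm2 and Mdm4, the CDK inhibitors Cdkn1a, Cdkn1b, Cdkn2a, Cdkn2b and Cdkn2c, the p53 target Ccng1, and Rb1, on which the CDK inhibitor pathways converge. Of these, 8 had enough counts to be tested, among 13550 tested genes in all, and Cdkn2a and Cdkn2b had 0 counts throughout.

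4T1 is a mouse mammary carcinoma line of Balb/c origin that spreads spontaneously from the mammary gland. AxR cells were grown out of a metastatic lesion from mice given axitinib, a VEGF receptor inhibitor, at 100 mg/kg/day, and were then kept in culture with 0.5 μM axitinib for months. P cells did not go through that selection, and they received vehicle by the study's methods, although the growth label names 0.5 μM axitinib for all 6 samples while the treatment and dose labels give it for AxR alone. Each line was sequenced in 3 libraries of poly(A) RNA. AxR is 1 derived line set against 1 parental line, so drug exposure, passage through the mouse and clonal origin cannot be told apart.

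p53 is a transcription factor that stops the cell cycle or triggers apoptosis after DNA damage and other stress. Mdm2 binds p53 and marks it for degradation, Mdm4 blocks its transactivation domain, and Mdm2, Cdkn1a and Ccng1 are themselves p53 targets, which makes Mdm2 part of a feedback loop. The CDK inhibitors fall into a Cip/Kip family (Cdkn1a, Cdkn1b and Cdkn1c), which binds many cyclin-CDK complexes, and an INK4 family (Cdkn2a to Cdkn2d), which binds the cyclin D kinases CDK4 and CDK6. Both keep the retinoblastoma protein Rb1 in the form that holds E2F factors inactive. Cdkn2a also encodes p19Arf from an upstream first exon, and p19Arf restrains Mdm2. 4T1 cells are commonly described as lacking functional p53, and counts per gene do not show the sequence or the protein made from a transcript.

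The libraries held 15495260 to 17294525 estimated counts. A count of 0 allows up to 3 counts, or 0.171 to 0.196 CPM (counts scaled to a common library size, here by upper quartile) depending on the library, with counting error only. The carcinoma label was checked against 8 epithelial markers, of which 4 were higher and 4 lower in AxR, and their summed level was 1851 to 2021 CPM in P and 2568 to 2646 CPM in AxR. The sum rests mostly on Krt18, Cdh1 and Krt8, at 676, 556 and 313 CPM in P and all higher in AxR. Of the 8 markers, 0 were at least 2-fold higher and 2 at least 2-fold lower, Cldn7 (log2 fold change -3.43) and Krt19 (-1.31). The summed markers of leukocytes (0.261 to 0.520 against 0.398 to 0.446 CPM), endothelium (0.425 to 0.693 against 0.191 to 0.383 CPM) and lung epithelium (0.289 to 0.425 against 0.381 to 0.398 CPM) were near the floor in both lines. Fibroblast markers summed to 22.5 to 24.1 CPM in P and 10.2 to 11.6 CPM in AxR. Pdgfra was the 1 tested gene among these 7, and Col3a1 and Lum were at 0 in all libraries. Bulk RNA does not separate fewer cells with a transcript from less of it per cell.

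The start regions of 3 members bear on what follows, since Cdkn1a is a classic p53 target and Cdkn2a and Cdkn2b gave no counts. They are shown 5′ to 3′ on the strand of the gene, from RefSeq windows on GRCm38.p6 that run from 250 bases before to 50 bases after an annotated start, with exon bases left out. Of the 10 members, 9 had at least 1 such window, and Rb1 had none. The first sequence, chr17:29090729-29090975 on the plus strand, ends just before the upstream start of Cdkn1a, and its capitals mark letters that match the p53 half-site consensus on either strand. The next pair, both on the minus strand of chromosome 4, precede the Cdkn2a starts of p19Arf (chr4:89294654-89294869) and of p16Ink4a (chr4:89282193-89282442), and the last precedes Cdkn2b (chr4:89311040-89311282, minus strand). In these 3 the capitals mark CpG dinucleotides. A lone capital C at the end of a sequence is one whose G fell among the exon bases left out, and it is not in the CpG counts below.
Cdkn1a, upstream start: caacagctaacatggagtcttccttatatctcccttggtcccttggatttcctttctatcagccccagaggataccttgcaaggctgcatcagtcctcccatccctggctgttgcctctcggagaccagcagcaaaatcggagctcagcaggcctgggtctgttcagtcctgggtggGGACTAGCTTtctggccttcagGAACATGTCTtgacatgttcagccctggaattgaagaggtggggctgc
Cdkn2a, p19Arf start: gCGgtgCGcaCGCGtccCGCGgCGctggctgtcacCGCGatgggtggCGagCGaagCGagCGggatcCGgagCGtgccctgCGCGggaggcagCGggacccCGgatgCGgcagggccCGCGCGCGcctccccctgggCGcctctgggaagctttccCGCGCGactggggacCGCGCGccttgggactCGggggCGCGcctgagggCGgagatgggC
Cdkn2a, p16Ink4a start: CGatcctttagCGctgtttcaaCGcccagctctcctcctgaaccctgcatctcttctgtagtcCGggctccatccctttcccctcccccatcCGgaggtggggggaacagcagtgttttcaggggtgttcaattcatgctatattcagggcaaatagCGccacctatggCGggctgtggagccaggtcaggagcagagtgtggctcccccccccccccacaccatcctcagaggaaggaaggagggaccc
Cdkn2b: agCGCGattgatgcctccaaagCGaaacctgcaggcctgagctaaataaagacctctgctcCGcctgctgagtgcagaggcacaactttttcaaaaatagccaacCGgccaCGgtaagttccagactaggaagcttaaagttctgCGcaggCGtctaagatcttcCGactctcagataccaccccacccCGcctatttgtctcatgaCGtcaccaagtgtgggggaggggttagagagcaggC

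The Cdkn1a window held 2 exact half-site matches, 73 to 64 and 51 to 42 bases before the start, with 12 bases between them. The 10 bases that directly follow the second match differ from the consensus in their first base only and were left in lower case. Which of these stretches p53 uses cannot be read from exact matches. A half-site match was found in 8.36% of 32817 windows over all genes, and a pair with 0 to 13 bases between in 24 windows (0.0731%). The p19Arf start was dense in CpG, with 35 in 216 bases, against 7 in the 250 bases before the p16Ink4a start and 11 in the 243 bases before Cdkn2b. Letter matches describe the reference genome, and binding and methylation were not measured here.

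Of the 8 tested members, 2 were higher in AxR (Cdkn2c and Ccng1), 3 were lower (Mdm4, Rb1 and Trp53), and Mdm2, Cdkn1a and Cdkn1b did not pass the test (edgeR's quasi-likelihood test, Benjamini-Hochberg adjusted p under 0.05). Over all tested genes, 32.8% were higher and 30.8% lower, 63.5% in all, so a call alone sets no member apart. None of the 8 changed by 2-fold or more, against 7.99% of all tested genes at least 2-fold higher and 4.72% at least 2-fold lower. The same 5 members had no overlap between the libraries of the lines, as did 68.2% of all tested genes. For each of them the exact two-sided permutation test gave p = 0.1, the smallest p that 3 against 3 libraries allow. Whether the 3 libraries of a line came from separate cultures is not stated, so every p measures the spread between these libraries, which may be technical.

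**Figure D1:**
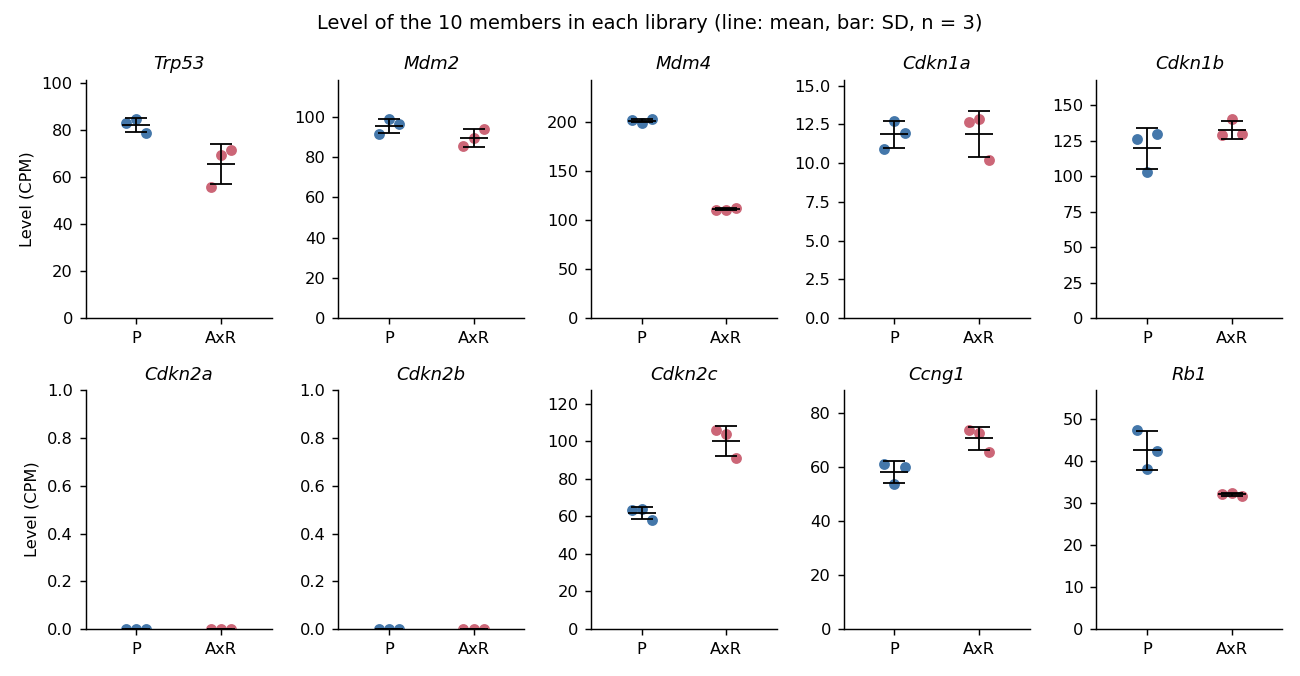
Level of each member in CPM (y axis, from 0, on a scale of its own in each panel) in the 3 P and 3 AxR libraries (points), with the mean (line) and SD (bar). Mdm4, Trp53 and Rb1 sit lower and Cdkn2c and Ccng1 higher in every AxR library than in any P library, the groups of Mdm2, Cdkn1a and Cdkn1b overlap, and Cdkn2a and Cdkn2b are at 0 throughout.

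Trp53 (ENSMUSG00000059552.13, chr11:69580359-69591873, plus strand), which encodes p53, was transcribed in both lines and was lower in AxR. Its level was 83.1, 84.6 and 79.0 CPM in P replicates 1 to 3 and 56.1, 69.4 and 71.9 CPM in AxR replicates 1 to 3. All AxR libraries lay under all P libraries, with AxR replicate 1 the lowest. The mean fell from 82.3 ± 2.90 CPM to 65.8 ± 8.49 CPM (SD, n = 3), a log2 fold change of -0.32 with a standard error (SE) of 0.079 and an edgeR adjusted p of 0.00283. The median log2 fold change was 0.0077 over the 1046 tested genes of chromosome 11 and -0.17 over the 25 tested genes on each side of Trp53.

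Mdm4 (ENSMUSG00000054387.13, chr1:132959484-133030561, minus strand), which inhibits p53, had the largest change among the members. It was measured at 202, 199 and 202 CPM in P and 110, 111 and 112 CPM in AxR. The libraries of a line lay within a few CPM of each other and the lines were far apart. AxR held 0.552 times the P level (201 ± 1.84 to 111 ± 1.16 CPM, SD, n = 3), with a log2 fold change of -0.86, an SE of 0.047 and an edgeR adjusted p of 6.53e-10. The change was larger in size than that of 83.6% of all tested genes. Genes around it were lower as well: the median was -0.29 over the 811 tested genes of chromosome 1 and -0.59 over the 25 on each side, and the part of the neighbourhood in the Mdm4 value was not tested. Its estimated counts were not whole in any of the 6 libraries, so a part of its reads was shared by likelihood with other genes, and Gm29257 on the opposite strand, at 0.329 CPM in P and 0.515 CPM in AxR, overlaps it. The 3 tested genes with the nearest profile over the 6 libraries (Euclidean distance of centred log2 CPM) were Nol8 on chromosome 13, Vim on chromosome 2 and Ccdc88c on chromosome 12, at distances of 0.031, 0.064 and 0.064 and log2 fold changes of -0.86, -0.86 and -0.87.

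Mdm2 (ENSMUSG00000020184.15, chr10:117688875-117710758, minus strand), the ubiquitin ligase of p53, differed less. It stood at 91.3, 98.6 and 96.2 CPM in P and 85.2, 89.3 and 94.0 CPM in AxR. The highest AxR library lay above the lowest P library. The log2 fold change of -0.09 (SE 0.056) did not pass the test, with an edgeR adjusted p of 0.169, and the exact two-sided permutation p was 0.2. The median was 0.25 over tested genes of chromosome 10 and 0.27 over the 25 on each side, so Mdm2 lay under its surroundings.

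**Figure D2:**
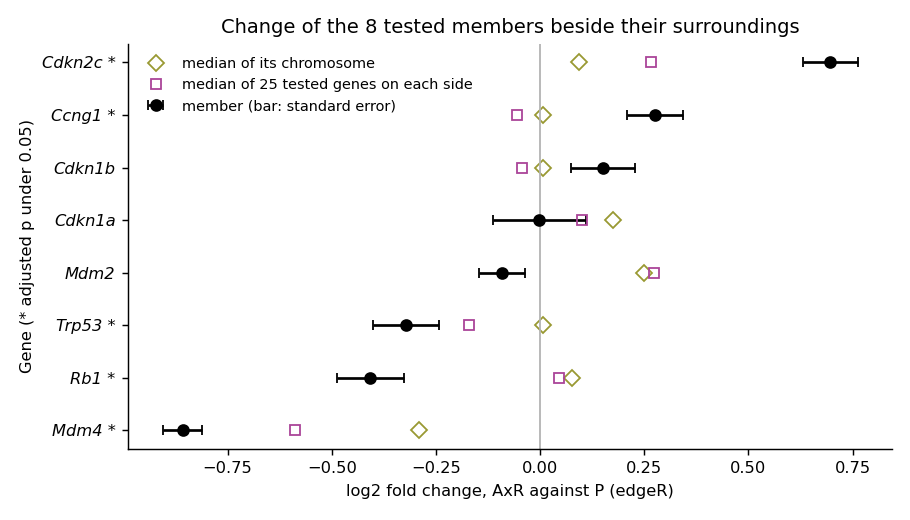
log2 fold change of AxR against P (x axis) for the 8 tested members (black points, bars show the SE), with the median of the tested genes of the same chromosome (diamonds) and of the 25 tested genes on each side (squares). Mdm4 at -0.86 lies beyond its neighbours at -0.59, and Rb1, Trp53, Ccng1 and Cdkn2c lie further from 0 than either median.

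Of the CDK inhibitors of the Cip/Kip family, Cdkn1a (ENSMUSG00000023067.13, chr17:29090976-29100727, plus strand), which encodes p21, was low in both lines, with like means. It reached 10.9, 12.7 and 11.9 CPM in P and 12.6, 12.8 and 10.2 CPM in AxR. The lowest and the highest library both belonged to AxR. The means were 11.9 ± 0.883 and 11.9 ± 1.47 CPM (SD, n = 3), and the log2 fold change of -0.0020 had an SE of 0.11 and an edgeR adjusted p of 0.989. Per kilobase of exon, Cdkn1a was above 34.1% of all tested genes.

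Cdkn1b (ENSMUSG00000003031.14, chr6:134920401-134925513, plus strand) encodes p27, which holds cyclin E and cyclin A kinases. Its level was 127, 103 and 130 CPM in P and 129, 140 and 130 CPM in AxR. P replicate 2 lay apart from the other 5 libraries, which stood between 127 and 140 CPM, and the lines overlapped. The mean was 120 ± 14.4 CPM in P and 133 ± 6.23 CPM in AxR (SD, n = 3), with a log2 fold change of 0.15 (SE 0.077) and an edgeR adjusted p of 0.103. This call depended on the libraries and the filter: the adjusted p was 0.0447 without P replicate 3 and 0.0368 with no filter on low counts, within a range of 0.0368 to 0.422 over the alternatives. The 0.422 came without P replicate 2, where the log2 fold change was 0.055. Cdkn1c, the third gene of the family, had at most 1 count in each P library and 0 counts in each AxR library.

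Of the INK4 family, Cdkn2c (ENSMUSG00000028551.14, chr4:109660876-109667189, minus strand), which encodes p18, was higher in AxR. It was measured at 63.4, 64.1 and 58.2 CPM in P and at 106, 104 and 91.3 CPM in AxR. The lowest AxR library stood well above the highest P library. The mean rose from 61.9 ± 3.26 CPM to 100.4 ± 7.97 CPM (SD, n = 3), 1.62 times the P level, with a log2 fold change of 0.70, an SE of 0.066 and an edgeR adjusted p of 2.7e-07. The median was 0.094 over chromosome 4 and 0.27 over the 25 tested genes on each side of Cdkn2c. Cdkn2d, another INK4 gene, was also higher, at 8.68 ± 0.272 CPM in P and 12.8 ± 0.551 CPM in AxR, with a log2 fold change of 0.56 (SE 0.10) and an adjusted p of 1.6e-04.

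Cdkn2a (ENSMUSG00000044303.6, chr4:89274471-89294653, minus strand) and Cdkn2b (ENSMUSG00000073802.4, chr4:89306299-89311039, minus strand), which encodes p15, had 0 estimated counts in each of the 6 libraries. In a single library a count of 0 allows each of them up to 0.196 CPM, and no fold change can be given. The count for Cdkn2a covers both start regions shown above, since p19Arf and p16Ink4a share 1 gene entry. Mtap, the methylthioadenosine phosphorylase gene whose annotated end lies 93.39 kb from Cdkn2a, was by contrast at 770 ± 44.9 CPM in P and 612 ± 46.0 CPM in AxR (log2 fold change -0.33, edgeR adjusted p 2.08e-04). Dmrta1, on the other side of Cdkn2b, had 0 counts in all libraries.

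In the region that reaches 1000 kb to each side of Cdkn2a, 68 genes were annotated, of which 9 were tested and 41 were without a count in the 6 libraries. Of the 40 coding genes there 26 were without a count. The type I interferon genes of the cluster, which few cells transcribe without infection, made up 18 of the 68 by their Ifn symbols, 1 pseudogene included, and 17 of these 18 were without a count. Genes among them that carry only a Gm symbol are not in that number, and some had a few counts, such as Gm13276 with at most 3.87 in a P library. Gm12606, a lincRNA beside Cdkn2a, was present at 0.792 ± 0.223 CPM in P and 0.536 ± 0.152 CPM in AxR. Its change did not pass the test (log2 fold change -0.57, edgeR adjusted p 0.207). On the side of Cdkn2b the next tested gene was Gm12669, 2494.51 kb away, at 18.5 CPM in P and 20.8 CPM in AxR. Untested genes between them had some counts, such as Gm12608 (at most 5 in a P and 4 in an AxR library) and Zfp352 (at most 6 and 15). The non-coding Gm12602, whose start lies beside that of Mtap, was lower in AxR (6.89 ± 1.58 to 3.66 ± 0.474 CPM, log2 fold change -0.92, edgeR adjusted p 3.34e-04), as was the lincRNA Wincr1 (1.02 ± 0.172 to 0.456 ± 0.218 CPM, -1.16, adjusted p 0.0158). These Gm genes, Zfp352 and Wincr1 were picked with their values in view. The DNA of the locus was not measured here.

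**Figure D3:**
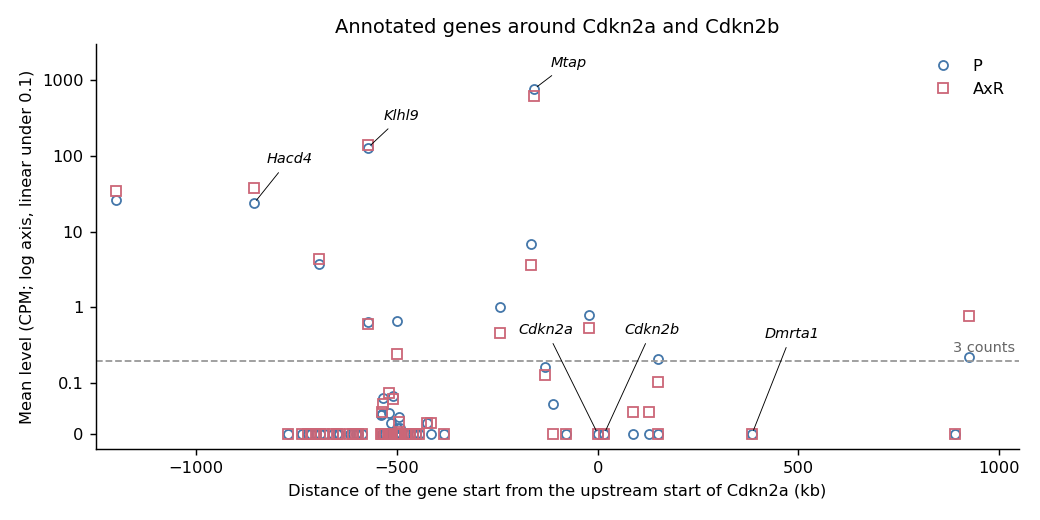
Mean level in P (circles) and AxR (squares) of the 68 annotated genes around Cdkn2a and Cdkn2b, in CPM (y axis, logarithmic above 0.1 and linear under it), against the distance of each gene's start from the upstream start of Cdkn2a in kb (x axis); the dashed line is the highest level that 3 counts stand for. Cdkn2a, Cdkn2b and Dmrta1 lie at 0 in both lines, while Mtap on the other side stands at 770 and 612 CPM.

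Rb1 (ENSMUSG00000022105.6, chr14:73183673-73325822, minus strand), which holds E2F factors inactive until CDKs phosphorylate its protein, was lower in AxR. Its level was 47.3, 37.9 and 42.3 CPM in P and 32.2, 32.3 and 31.6 CPM in AxR. The P libraries were spread far more widely than the AxR libraries, and the lines did not overlap. The mean fell from 42.5 ± 4.67 to 32.0 ± 0.351 CPM (SD, n = 3), with a log2 fold change of -0.41 (SE 0.079) and an edgeR adjusted p of 3.59e-04. The median was 0.076 over chromosome 14 and 0.045 over the 25 tested genes on each side. Rb1 overlaps Rcbtb2 (44.9 CPM in P and 59.8 CPM in AxR) and Lpar6 (12.6 and 14.3 CPM) on the opposite strand. The kit keeps the strand, but the sources used here do not give the strand setting of the counting, and 2 of the 6 Rb1 values were not whole.

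The Rb1 paralogs went in different directions. Rbl1, which encodes p107, was lower in AxR, at 89.6 CPM in P and 68.4 CPM in AxR (log2 fold change -0.39, edgeR adjusted p 1.28e-05). Rbl2, which encodes p130, the pocket protein of quiescent cells, was higher, at 22.6 and 39.5 CPM (log2 fold change 0.81, adjusted p 8.49e-07).

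Ccng1 (ENSMUSG00000020326.7, chr11:40748552-40755311, minus strand), which encodes cyclin G1, was the p53 target among the members that rose. It stood at 61.2, 53.6 and 59.9 CPM in P and 73.6, 72.5 and 65.5 CPM in AxR. The lowest AxR library lay above the highest P library. The mean rose from 58.2 ± 4.04 to 70.5 ± 4.41 CPM (SD, n = 3), with a log2 fold change of 0.28 (SE 0.067) and an edgeR adjusted p of 0.00198. The 25 tested genes on each side had a median of -0.056.

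To compare levels between genes, CPM was divided by the kilobases of annotated exon. In P the order was Cdkn1b (26.3 ± 3.17 CPM per kb, SD, n = 3), Cdkn2c (23.0 ± 1.21), Trp53 (20.3 ± 0.717), Mdm2 (18.8 ± 0.728), Ccng1 (16.6 ± 1.15), Mdm4 (13.6 ± 0.124), Rb1 (7.06 ± 0.776), Cdkn1a (3.34 ± 0.249) and then Cdkn2a and Cdkn2b at 0. Among neighbours in this order, Cdkn1b and Cdkn2c overlapped between libraries, as did the pair at 0. In AxR, Cdkn2c came first at 37.4 ± 2.97 CPM per kb and Cdkn1b next at 29.2 ± 1.37, followed by Ccng1 (20.1 ± 1.25), Mdm2 (17.6 ± 0.868) and Trp53 (16.3 ± 2.10), of which the last 2 overlapped, and then Mdm4 (7.50 ± 0.0786), Rb1 (5.33 ± 0.0584) and Cdkn1a (3.34 ± 0.414). Trp53 was above 78.2% of all tested genes per kilobase over both lines, and Cdkn1a was the lowest of the members with counts in each line. Exon length covers all annotated isoforms, so a gene with many unused exons is set too low by this scale.

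What else p53 is known to switch on was read from a list of 42 target genes, which includes Cdkn1a, Mdm2 and Ccng1. Of the 38 tested, 17 were higher, 13 were lower and 8 did not pass the test, which is 44.7% higher and 34.2% lower against 32.8% and 30.8% of all genes. The median log2 fold change was 0.0098, beside 0.0058 over all tested genes. Single libraries moved these values: the lower targets numbered 8 without P replicate 3 and 8 without AxR replicate 2, and the median was 0.094 without P replicate 2. The libraries of the lines did not overlap for 28 of the 38 genes, or 73.7%, against 68.2% of all.

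The targets with at least 2-fold change were 7 higher (18.4%) and 1 lower (2.63%), beside 7.99% and 4.72% of all tested genes. Perp, which takes part in apoptosis and in desmosomes, was at 125 ± 9.92 CPM in P and 383 ± 10.2 CPM in AxR (log2 fold change 1.62, edgeR adjusted p 6.17e-12). Ddit4, an inhibitor of mTORC1 that also answers to hypoxia and glucocorticoids, was at 104 ± 10.3 and 262 ± 34.0 CPM (1.33, adjusted p 2.61e-06). Tap1, the peptide transporter of antigen presentation and an interferon target too, was at 9.14 ± 0.707 and 39.8 ± 2.23 CPM (2.12, adjusted p 2.12e-11).

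The remaining 2 of the 5 largest increases were of low transcripts: Ak1, an adenylate kinase, rose from 0.394 ± 0.180 to 3.31 ± 0.0687 CPM (log2 fold change 3.07), and Ephx1, an epoxide hydrolase, from 0.920 ± 0.0964 to 5.18 ± 0.555 CPM (2.49). The other targets at least 2-fold higher were Dcxr (0.732 to 1.75 CPM, 1.25) and Sesn1 (7.12 to 16.1 CPM, 1.18). Trp53cor1, or lincRNA-p21, which is transcribed next to Cdkn1a, was the target that fell by 2-fold or more, from 1.63 ± 0.225 to 0.680 ± 0.158 CPM (log2 fold change -1.26, edgeR adjusted p 0.00186). The apoptosis genes Bax (32.5 CPM in P, log2 fold change -0.12, adjusted p 0.151) and Bbc3, or Puma (15.2 CPM in P and 16.3 CPM in AxR, 0.10, adjusted p 0.408), did not pass the test. The 4 targets that were not tested included Pmaip1, or Noxa, Gdf15 and Eda2r, each at 0 counts in P and at most 2 counts in any AxR library. The fourth was Zfp365, with at most 2 counts in P and 10 in AxR.

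**Figure D4:**
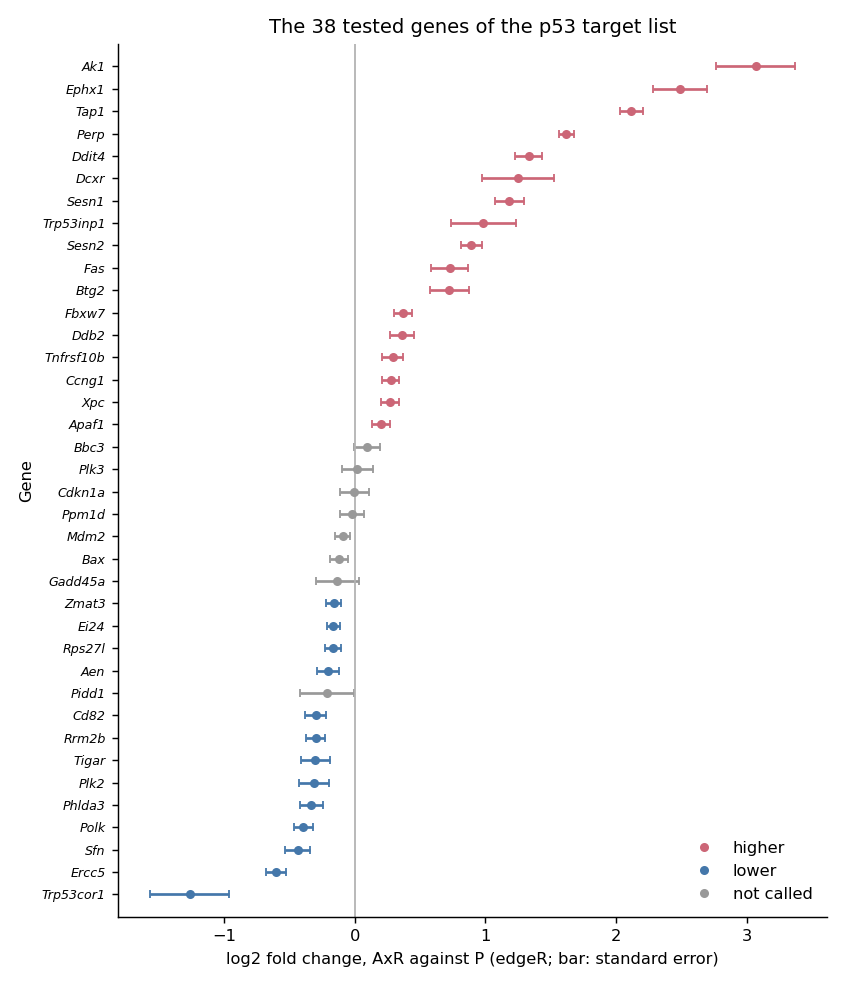
log2 fold change of AxR against P (x axis; bars show the SE) for the 38 tested genes of the p53 target list, sorted; red points were higher, blue points lower and grey points did not pass the test. The 17 higher genes reach 3.07 (Ak1), the 13 lower genes reach -1.26 (Trp53cor1), and Cdkn1a, Mdm2, Bax and Bbc3 lie near 0.

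Half-site letters like those shown for Cdkn1a were searched in the start windows of the target list. Windows were found for 33 of the 42 genes, 49 in all, and 12 of these (24.5%) held a half-site match against 8.36% of all windows. Counting exact matches only, Cdkn1a was the 1 gene with a pair 0 to 13 bases apart. Of the 5 targets with the largest increases, Ak1, Ephx1, Tap1 and Ddit4 had a window, none with a match, and Perp had no window. Known sites of many p53 targets lie in introns that these windows do not cover.

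Of the 26 tested genes among 27 of the p53 family and its regulators, 8 were higher (30.8%) and 10 lower (38.5%), near the 32.8% and 30.8% of all tested genes, with a median of -0.12. Chek2, the DNA damage kinase that phosphorylates p53, was at 8.64 ± 0.489 CPM in P and 21.2 ± 2.14 CPM in AxR (log2 fold change 1.29, edgeR adjusted p 3.06e-08). Trp63, a p53 paralog of basal epithelium, had 0 to 2 counts in the P libraries and 0.953, 1.08 and 1.31 CPM in the AxR libraries, at least 5.70-fold higher against the level of 3 counts per library. Trp73, the other paralog, had 0 counts in all 6 libraries. All 10 lower genes, Trp53 and Mdm4 among them, changed by less than 2-fold.

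Among the 8 CDK inhibitors listed, 5 were tested, 3 were higher and none was lower: Cdkn2c, Cdkn2d and Cdkn3, a phosphatase that acts on CDKs (14.4 CPM in P, log2 fold change 0.47, edgeR adjusted p 2.93e-04). With 3 of 5 called, against 63.5% of all tested genes called and 32.8% higher, the count does not set the list apart. The kinases that INK4 proteins bind differed in direction. Cdk4 was at 337 CPM in P and 405 CPM in AxR (0.26, adjusted p 1.43e-04), whereas Cdk6 was at 485 and 341 CPM (-0.51, adjusted p 1.55e-06) and their partner Ccnd1, cyclin D1, at 1168 and 809 CPM (-0.53, adjusted p 8.0e-07).

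Of the 15 tested cyclins and CDKs, 6 were higher and 5 (33.3%) lower, near the 32.8% and 30.8% of all tested genes, with a median of 0.0024 that lay on either side of 0 as libraries were left out (-0.039 to 0.031, without AxR replicate 3 and without AxR replicate 2). Ccna2, cyclin A2 of S and G2 phase, was the 1 gene changed by at least 2-fold, at 181 ± 12.4 and 375 ± 26.9 CPM (log2 fold change 1.05, edgeR adjusted p 1.84e-09). The lower genes were Ccnd1, Ccnd2, Cdk6 and the CDK-activating kinase subunits Ccnh and Mnat1. The names of Cdkn3, Cdk4 and of these 5 were chosen after their values were seen.

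Genes that the RB family and the DREAM complex hold down outside S and G2 phase leaned to higher levels. Of 32 tested, 21 were higher (65.6%) and 3 lower (9.38%, Cdc25a, Mybl2 and Cdt1), against 32.8% and 30.8% of all genes, with a median log2 fold change of 0.35. The other 8 did not pass the test, among them Ccne1 (log2 fold change -0.32), Ccne2 (-0.35), E2f1 (0.11) and Rrm2 (-0.34). Genes of G1/S and DNA replication thus went in different ways, with Mcm2 (0.64) and Mcm6 (0.60) among the higher. Cdc25c, the phosphatase that opens mitotic entry, rose from 19.2 to 40.9 CPM (1.09, edgeR adjusted p 7.6e-09), and Mki67, the proliferation marker, from 507 to 878 CPM (0.79, adjusted p 8.54e-08). The list shares 6 genes with the cyclins and CDKs, Ccna2 among them, and 2 with the RB and E2F list. Cdc25a, Mybl2, Cdt1, Mki67, Ccne1, Ccne2, E2f1, Rrm2, Mcm2 and Mcm6 were singled out with their values known. In the RB and E2F list, 6 of 20 tested genes were higher and 9 lower, with a median of -0.072. Leaving out AxR replicate 1 raised the lower genes of the DREAM list from 3 to 5.

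**Figure D5:**
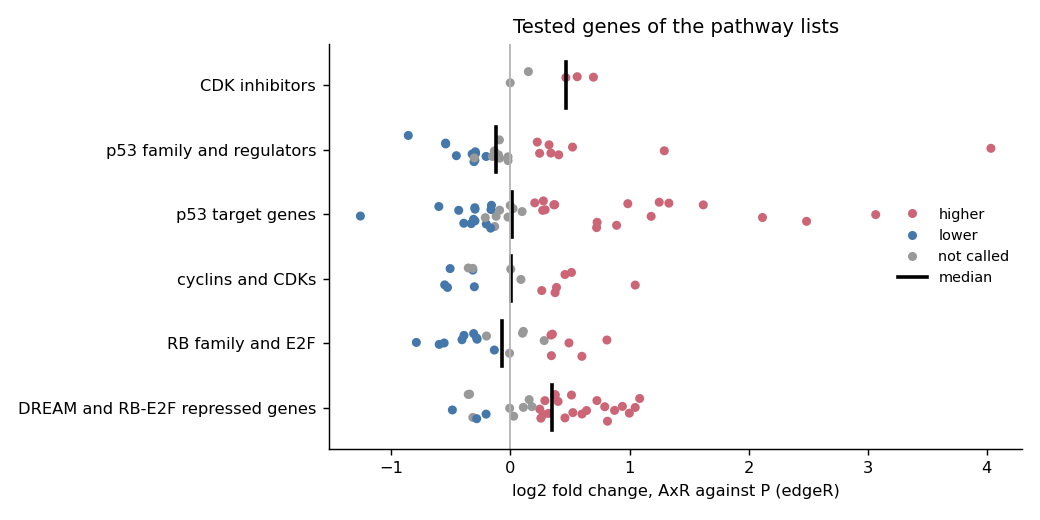
log2 fold change of AxR against P (x axis) for the tested genes of 6 lists (points, spread vertically for legibility; red higher, blue lower, grey not past the test), with the median of each list (black line). The DREAM and RB-E2F repressed genes lie mostly above 0 with a median of 0.35, and the p53 targets lie on both sides of 0 around 0.0098; the point furthest to the right is Trp63, whose fitted value depends on the low counts of P.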

How the data were processed

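The authors sequenced stranded poly(A) libraries of 3 P and 3 AxR samples. Per the labels and the study's methods, the authors checked reads with FastQC 0.11.5, aligned them to GRCm38 with STAR 2.6.0a and GENCODE M16, and deposited estimated counts per gene from RSEM 1.3.1, which divides reads that match several genes by likelihood. The study's own filter and upper quartile scaling came after the deposited counts. Lines and replicate numbers were taken from the sample labels.

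Estimated counts were rounded, filtered with filterByExpr, scaled by upper quartile and passed to glmQLFit (robust) and glmQLFTest, the quasi-likelihood test of edgeR 4.0.16 (run under R 4.3.3), taking line as the only term and Benjamini-Hochberg adjustment over 13550 genes. The SE of a log2 fold change was its size divided by the square root of F. CPM are unrounded estimates over the scaled library size. Log2 CPM used a prior count of 2, and permutation tests log2(CPM + 0.5). Scaling factors lay between 0.966 and 1.02. Positions, exon lengths and symbols came from GENCODE M21, the same build, in which 53274 of 53465 identifiers were found. On simulated data for this comparison (13550 genes, 200 changed by 1 on the log2 scale in each of 5 draws), 93.9% of the changed genes were recovered and 4.67% of calls were false. The simulation gave all genes 1 shared dispersion and changed few of them. In the data 63.5% of tested genes were called and no member changed by 2-fold or more, so these rates do not describe the calls made here. Replicate libraries differed by 5.06 to 19.4 times the counting noise (chi-square per degree of freedom), so none was a copy.

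The members and lists were chosen with earlier results of these data known. Named genes are the members, the paralogs, neighbours and Skp2, and from each list up to 5 higher and 5 lower genes past an adjusted p of 0.05 with a log2 fold change of at least 1 in size. p53 targets that did not pass the test could be named too. Other names were chosen after their values were seen. P53 sites were searched by the consensus on both strands. Alternatives were TMM scaling, library size only, DESeq2 1.42.0, limma-voom from limma 3.58.1, no low-count filter, at least 10 counts in every library, the replicate number as a block, each library left out in turn, and an added fold threshold. Same-numbered P and AxR libraries did not deviate together (correlations of -0.021, -0.0061 and -0.022 over genes), so the numbers were not used as pairs.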

Additional observations from a re-analysis of the deposited data

How the results depend on the processing

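Over the alternatives, Trp53, Mdm4, Cdkn2c, Ccng1 and Rb1 kept their direction and their call, and Mdm2 stayed without one. The size of the Trp53 change was less steady, from -0.39 to -0.22 over the libraries left out, against -0.86 to -0.85 for Mdm4. The value of -0.22 came without AxR replicate 1. Of the 173 alternative values for the members and the p53 target list, 160 stayed the same. For a gene this meant the same direction and call. For a count or median of a list it meant a value within a set margin of the main one. Cdkn1a, close to no change, turned to positive values when P replicate 2 (0.054), AxR replicate 3 (0.10) or P replicate 3 (0.0048) was left out, with a range of -0.057 to 0.10 over the libraries left out and no call. Cdkn1b passed the test with no low-count filter (0.15) and without P replicate 3 (0.21). Its values ranged from 0.055, without P replicate 2, to 0.21 over the libraries left out. With a log2 fold change of at least 1 required, the members called were 0 higher and 0 lower, and the p53 targets 7 higher and 1 lower. The median of the p53 targets was 0.15 with no low-count filter, where low genes enter, and -0.027 to 0.094 over the libraries left out, with 0.094 reached without P replicate 2. The p53 targets called lower were 8 to 12 over the libraries left out, 8 of them without P replicate 3 or without AxR replicate 2, against 13 with all. The cause of these shifts was not tested.

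When the replicate number entered as a block, the same 5 members were called, for example Trp53 at -0.33 (adjusted p 0.00228) and Mdm4 at -0.86 (adjusted p 1.66e-08), and no call of a member changed. The numbers do not pair the samples by the check of their deviations. Of the 777 values for other lists and named genes, alternatives that were added after seeing the data, 755 stayed the same by these rules, and no single gene reversed. Depth limits statements on genes near 3 counts, such as Trp63, Cdkn1c and Pmaip1. It also limits those on Cdkn2a and Cdkn2b, where a count of 0 in a library allows up to 0.196 CPM.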

Other observations

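A list of 23 genes that set the level of CDK inhibitors from outside the family was read in the same way. Of the 22 tested, 8 were higher (36.4%) and 9 lower (40.9%) in AxR, close to the 32.8% and 30.8% of all tested genes, with a median log2 fold change of 0.057. Foxo3, a factor that switches on Cdkn1b, rose from 40.8 to 110 CPM (log2 fold change 1.43, edgeR adjusted p 2.82e-11), beside the 0.15 of Cdkn1b that did not pass the test. Skp2, the F-box protein that takes p27 to degradation, rose from 32.2 to 42.6 CPM (0.40, adjusted p 1.47e-04).

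Id2 and Id3, inhibitors of the bHLH factors that activate CDK inhibitor genes, rose from 2.70 to 8.55 CPM (log2 fold change 1.66) and from 15.1 to 33.2 CPM (1.14). Cbx8, a Polycomb subunit that represses the Cdkn2a locus, was at 11.4 CPM in P and 22.9 CPM in AxR (1.00). The other Polycomb genes of the list did not move together. Ezh2 was higher (0.22), Rnf2 lower (-0.45), and Bmi1 (-0.15) and Cbx7 (0.18) did not pass the test. Tbx2, a repressor of Cdkn2a and Cdkn1a, fell from 2.02 to 0.612 CPM (log2 fold change -1.71, edgeR adjusted p 4.53e-04). Myc, which represses Cdkn1a and Cdkn2b, fell from 929 to 501 CPM (log2 fold change -0.89, edgeR adjusted p 6.89e-04). Myc, Ezh2, Rnf2, Bmi1 and Cbx7 were chosen after their values were seen. Cdkn1a stood at 11.9 CPM on average in both lines and Cdkn2b had no count. Whether any regulator of this list acted on the CDK inhibitors was not tested.

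Around the Cdkn2a locus, the tested genes of the neighbour list beyond Mtap were higher (2) or did not pass the test (2). Hacd4 was at 23.8 ± 0.708 CPM in P and 37.3 ± 1.54 CPM in AxR (log2 fold change 0.65). Focad was at 26.1 ± 1.90 and 34.1 ± 0.766 CPM (0.38), and both were chosen after their values were seen. Nearer to Cdkn2a, Mtap, Gm12602 and Wincr1 were lower, while the nearest tested gene, Gm12606, did not pass the test (-0.57, edgeR adjusted p 0.207). Gm12602, Wincr1 and Gm12606 are not in the neighbour list.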
